A study of Mus musculus with 12 samples.

Results

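The 28 genes described here encode the enzymes of cholesterol synthesis, the SREBP2 regulators and several sterol carriers of mouse liver. They were taken by symbol from the deposited expression table, which holds 25069 genes, and all 28 were found there. Every one had a mean of at least 10 normalized counts over the 12 libraries, the level above which 14473 genes were tested. The libraries came from livers of female mice whose own Khdc3 genotype, for a gene active in the egg, was wild type. The 4 WTMM livers came from mice with Khdc3-null grandmothers on the mother's and the father's side. The 4 WTPP livers came from mice whose grandfathers on both sides were Khdc3-null. The 4 WT livers came from mice with wild-type ancestors only, so the groups differed in ancestry and not in their own genotype. The sources used here give no age, diet, fasting state or hour of collection.

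Cholesterol is built from acetyl-CoA through mevalonate, squalene and lanosterol. When membrane sterol is low, the escort protein SCAP carries the membrane-bound factor SREBP2 to the Golgi, where it is cut and released to switch on nearly all genes of the route. When sterol is high, the INSIG proteins hold SCAP in the endoplasmic reticulum, and the genes of the route are turned down together. Hepatocytes are a main site of this synthesis and its regulation follows feeding.

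The libraries held between 25070718 and 35843972 reads assigned to genes, and between 19272 and 20395 genes with at least 1 read. The labels give the cell type as hepatocyte, and all 8 hepatocyte markers were detected, with summed levels of 2832978 to 4447437 normalized counts. RNA of other cells was present too: none of 8 Kupffer cell, 6 B cell, 5 erythroid or 9 pancreatic acinar markers was at 0 in every library. The summed Kupffer cell markers lay at 10967 to 15031 normalized counts in WTMM, 11454 to 14879 in WTPP and 16192 to 36997 in WT. Summed markers of several other cell types had lower means in the descendants too: the 6 T and NK cell markers summed to means of 113 in WTMM, 147 in WTPP and 345 in WT, the B cell markers to 282, 403 and 815, and the 5 neutrophil markers to 65.7, 109.7 and 305. The acinar markers summed to means of 1565 in WTMM, 934 in WTPP and 2001 in WT. Of these 9 genes 8 were tested, and 6 were called in each descendant group against WT. The shares called over all tested genes were 10.4% in WTMM against WT and 10.2% in WTPP against WT. The part of these cell types in the results was not tested. The WT libraries also carry library names from S1 to S4 and the descendant libraries names from S20 to S27, so handling and ancestry cannot be told apart in comparisons with WT. In whole tissue, fewer cells of a type and less RNA per cell cannot be told apart either. The labels do not state that each library came from its own mouse, and p-values measure the spread between these libraries.

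On a scale that accounts for transcript length, the highest members were Insig1 at 298 TPM, Ebp at 238, Sc5d at 228, Hmgcs1 at 227 and Insig2 at 133, as means of 12 livers (TPM, a length-scaled share of the library computed from the recovered reads). The lowest were Ggps1 at 3.68 TPM and Lbr at 6.56 TPM. Hmgcs1 makes HMG-CoA, Ebp and Sc5d act late in the sterol ring steps, and Insig1 and Insig2 encode the anchors of SCAP. Ggps1 draws farnesyl units out of the route for protein prenylation, and Lbr is a nuclear envelope protein that also reduces the sterol ring.

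Many of these genes differed widely between livers of the same descendant group, and less so in WT. The SD of Hmgcs1 was 3802 normalized counts in WTMM, 8896 in WTPP and 955 in WT. In the WTMM 6 liver nearly the whole synthetic route stood low, and in the WTPP 6 liver it stood high. Sqle, squalene epoxidase, had 756, 3559, 3059 and 2040.4 normalized counts in WTMM livers 6, 7, 8 and 9. It had 2279, 2591, 4301 and 1625 in WTPP livers 2, 3, 6 and 7, against 2588, 2812, 3062 and 2790.5 in WT livers 116, 117, 118 and 120. The descendant groups thus spanned the tight WT values on both sides, and their group ranges overlapped. All per-liver values below follow the same order of livers.

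Idi1, which interconverts the isoprene units, had 339, 1227, 959 and 871 normalized counts in WTMM and 1205, 927, 1852 and 743 in WTPP, against 862, 781, 1162 and 1232 in WT. Fdps, which makes farnesyl diphosphate, had 342, 1055, 946 and 746 in WTMM and 1127, 1253, 1727 and 919.9 in WTPP, against 917, 1214, 970.0 and 1062 in WT. For both genes the same liver was lowest of all 12 and the same liver highest, WTMM 6 and WTPP 6. Mvd, mevalonate diphosphate decarboxylase, had 288, 823, 953 and 512 in WTMM and 852, 751, 1757 and 597 in WTPP, against 583, 1062, 681 and 472 in WT. Cyp51, the lanosterol demethylase, had 2206, 5853, 5548 and 4543 in WTMM and 5357, 5057, 8634 and 3545 in WTPP, against 4485, 4362, 5285 and 5080.1 in WT. Msmo1, a methylsterol oxidase, had 2884, 8183, 6775 and 5009 in WTMM and 6343, 7469, 14199 and 5779 in WTPP, against 4381, 6395, 5280.0 and 5392 in WT. These 3 genes repeated the same extremes.

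Across all 12 livers the highest level was 6.59 times the lowest for Hmgcs1, 6.11 times for Mvd, 5.69 for Sqle, 5.46 for Idi1 and 5.06 for Fdps. The reductase Dhcr7 (3.95), the sterol dehydrogenase Nsdhl (3.63), the lanosterol synthase Lss (3.54), the mevalonate kinase Mvk (2.85), the squalene synthase Fdft1 (2.42) and the ketoreductase Hsd17b7 (2.27) ranged less widely. The 8 members with the narrowest ranges were Stard4, a sterol transfer protein, at 2.17 times, the C14 reductase Tm7sf2 at 2.09, Acat2 at 1.97, the isomerase Ebp at 1.75, the lysosomal sterol carrier Npc2 at 1.72, Ggps1 at 1.63, Tmem97 at 1.58 and Lbr at 1.38. The regulators Insig2 (4.37) and Insig1 (3.84) ranged more widely than Lss. The lowest liver was WTMM 6 and the highest WTPP 6 for Dhcr7, Nsdhl, Lss, Fdft1 and Hsd17b7 too, while Mvk, Ebp and Tm7sf2 were highest in WT 117.

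**Figure D1:**
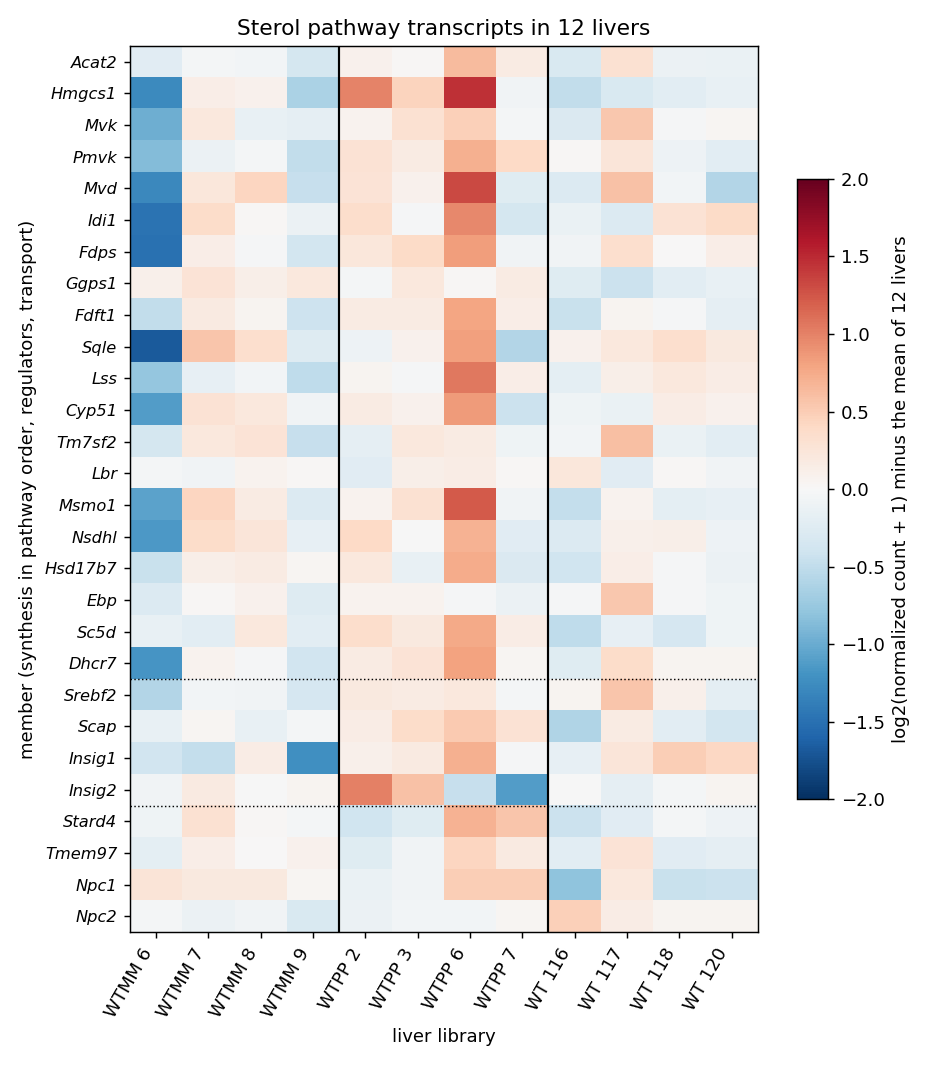
Heat map of the 28 sterol pathway genes (rows, in pathway order) in the 12 livers (columns), coloured by log2(normalized count + 1) minus the gene's mean over all 12 livers, with dotted lines between synthesis, regulators and transport. The WTMM 6 column is blue and the WTPP 6 column red across most synthesis rows, while Ggps1, Lbr and Insig2 do not follow them.

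To put one value on the route, 16 core enzymes acting after acetoacetyl-CoA were followed as a group (Hmgcs1, Mvk, Pmvk, Mvd, Idi1, Fdps, Fdft1, Sqle, Lss, Cyp51, Msmo1, Nsdhl, Hsd17b7, Ebp, Sc5d and Dhcr7). In WTMM 6 all 16 lay below their group mean, by 0.73 on average on the log2 scale (mean deviation -0.73), and 15 of them were the lowest of the 4 WTMM livers, Sc5d being the exception. In WTPP 6, 15 of the 16 lay above their group mean (mean deviation 0.56) and 15 were the highest of the 4 WTPP livers, all but Ebp. WTPP 7 stood low in its group, with a mean deviation of -0.38 and 15 of 16 enzymes below the group mean. Summed over the 16 enzymes, the level ran from 38518 to 69539 normalized counts over the WTMM livers, from 61444 to 120694 over the WTPP livers, and from 50992 to 65839 over the WT livers. The means were 57044 ± 15012, 84349 ± 25679 and 59347 ± 6165 (SD, n = 4 each) in WTMM, WTPP and WT. The ranges overlapped in every pair of groups.

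Over all 14473 tested genes, the root mean square deviation from the group mean was 0.30 (log2) in WTMM 6 and 0.35 in WTPP 6, each the largest of its own group, and 0.24 to 0.37 over the 12 livers. WT 117 was the highest and WTPP 6 next to it. The depths of WTMM 6 and WTPP 6, 25070718 and 26172914 reads, were among the lower ones. WTMM 8, with 25538513 reads, had a mean core deviation of 0.36. The part of depth in these values was not tested.

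Measured as the SD of log2 values about the group means, 25 of the 28 members lay above the median of 0.18 for the 11690 genes with a mean of at least 50, and 12 were among the top 10%. This SD pools the 3 groups, and the summed level of the core enzymes varied less in WT than in either descendant group. The largest SDs were 0.67 for Sqle, 0.66 for Mvd, 0.60 for Idi1, 0.57 for Insig2 and 0.55 for Hmgcs1. The smallest was 0.11, for Ggps1, followed by 0.14 for Npc2, which binds cholesterol in the lysosome, and 0.15 for Lbr. The enzymes moved together: over the 120 pairs of core enzymes the median Pearson r of these deviations was 0.81 (n = 12 livers, range 0.13 to 0.97), and 105 pairs exceeded 0.5. Over all pairs of the 11690 genes the median was 0.00, and 99.3% of those pairs lay at or below the core median. The core median was 0.76 without WTMM 6 and 0.77 without WTPP 6. These are descriptions of genes measured in the same 12 libraries, and no test was made of them.

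Dhcr7, a late sterol reductase, followed the other core enzymes most closely (r = 0.97), with Msmo1 also at 0.97 and Nsdhl at 0.95. Sc5d (0.61) and Ebp (0.49) followed them least among the core enzymes. Srebf2, which encodes SREBP2 itself, had r = 0.72. It had 1232, 1789, 1764 and 1477 normalized counts in WTMM and 2137, 2088, 2157 and 1801 in WTPP, against 1933, 2733, 1992 and 1622 in WT. All WTMM values thus lay below all WTPP values, and both groups overlapped WT. Among the carriers, Tmem97, a sterol-regulated membrane protein that binds NPC1, had r = 0.60, Stard4 0.39 and Npc1 0.30. Lbr (-0.03), Ggps1 (-0.17), Npc2 (-0.28) and Insig2 (0.04) did not follow the core enzymes.

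**Figure D2:**
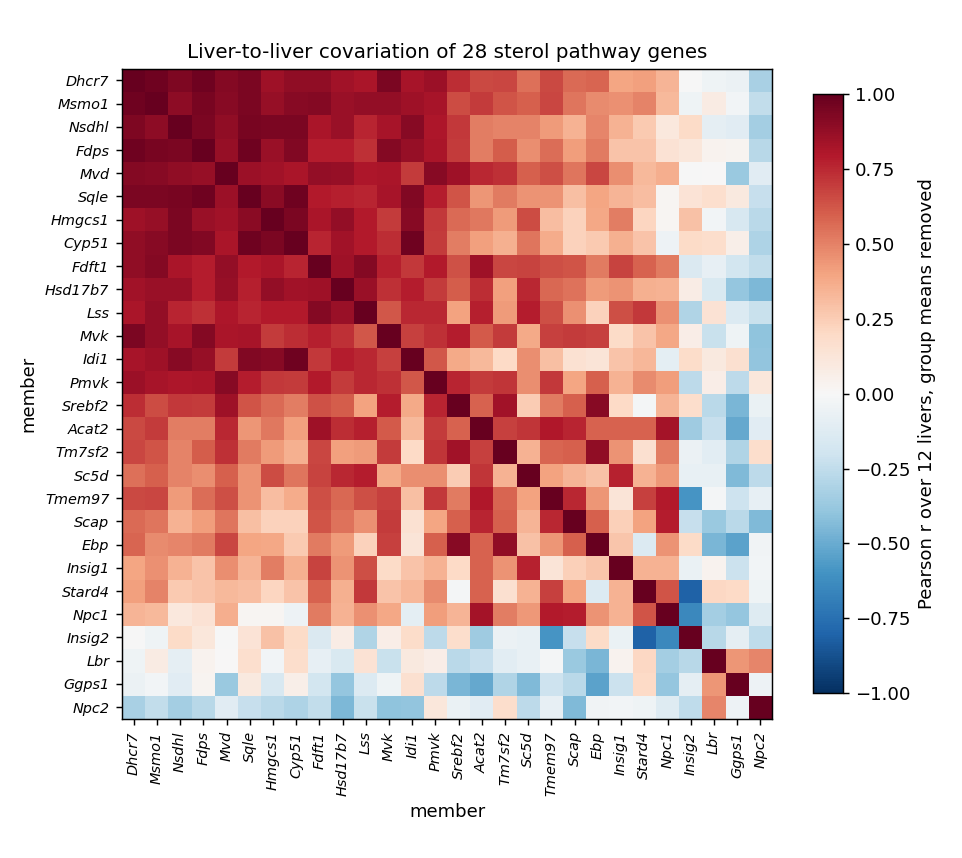
Pearson r between each pair of the 28 genes over 12 livers after group means were removed (both axes list the genes, ordered by their r with the core enzymes). The upper left block from Dhcr7 to Pmvk is red throughout, whereas the rows of Insig2, Lbr, Ggps1 and Npc2 are pale or blue.

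The 300-base promoter windows of RefSeq (250 bases before to 50 after the start, build GRCm38.p6) were available for 23 of the 28 genes and were searched on both strands for 3 motifs linked with SREBP2 targets. These were the sterol regulatory element TCACNCCAC, the NF-Y box CCAAT and the Sp1 box GGGCGG. Windows are shown as examples for Hmgcs1 and Mvk, which followed the core enzymes, and Ggps1, which did not. Matches on either strand are in capitals, and matches were free to overlap. Hmgcs1 lies on chr13:119690101-119690400 (+), Mvk on chr5:114444019-114444318 (+) and Ggps1 on chr13:14063439-14063738 (-).
Hmgcs1: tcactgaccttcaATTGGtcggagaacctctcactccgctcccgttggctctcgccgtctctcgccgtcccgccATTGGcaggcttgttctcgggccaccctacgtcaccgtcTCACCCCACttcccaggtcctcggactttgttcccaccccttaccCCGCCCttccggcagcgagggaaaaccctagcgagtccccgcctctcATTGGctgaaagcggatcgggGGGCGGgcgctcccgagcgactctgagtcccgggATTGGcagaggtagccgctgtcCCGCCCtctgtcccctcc
Mvk: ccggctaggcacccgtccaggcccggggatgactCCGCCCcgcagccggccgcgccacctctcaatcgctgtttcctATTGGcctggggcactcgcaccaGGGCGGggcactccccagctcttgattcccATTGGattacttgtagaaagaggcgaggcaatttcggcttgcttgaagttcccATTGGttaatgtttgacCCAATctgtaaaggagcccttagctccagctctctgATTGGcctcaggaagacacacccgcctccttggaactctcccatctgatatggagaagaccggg
Ggps1: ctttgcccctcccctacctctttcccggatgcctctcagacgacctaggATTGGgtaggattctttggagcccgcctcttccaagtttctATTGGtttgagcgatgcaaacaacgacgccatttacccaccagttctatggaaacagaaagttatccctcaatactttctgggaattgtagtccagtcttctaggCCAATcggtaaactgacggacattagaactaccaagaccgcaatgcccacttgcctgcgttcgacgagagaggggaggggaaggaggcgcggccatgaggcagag
The Hmgcs1 window holds the element TCACCCCAC from base -137, with 4 NF-Y boxes and 3 Sp1 boxes around it. The Mvk window holds 5 NF-Y boxes, and the Ggps1 window holds 3 NF-Y boxes and 0 Sp1 boxes. Hmgcs1 was the only 1 of the 23 genes with the element in its window (4.35%, against 1.44% of 27025 genes). An NF-Y box was found in 21 of 23 (91.3%, against 41.1% of all genes), all but Acat2 and Scap, and an Sp1 box in 21 of 23 (91.3%, against 38.2%), all but Ggps1 and Pmvk. The boxes did not separate the genes that followed the core enzymes from those that did not. Insig2, Lbr and Npc2, which did not follow the core enzymes, held both an NF-Y box and an Sp1 box. Pmvk, which followed the core enzymes (r = 0.84), held no Sp1 box. A match is a description of letters, and its absence says only that these letters are not in the window.

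Of the genes outside the members, the 10 that followed the mean core deviation most closely were led by Gm3571 (r = 0.97, n = 12). Gm3571 and Gm5873 (r = 0.95) are processed pseudogenes with 98.9% and 96.7% identity to Fdps over 1062 and 1066 aligned bases, and had 41.0% and 16.7% as many reads as Fdps. Reads of Fdps and these copies may therefore have been split or shared in the counting. Mmab (r = 0.96), an enzyme of vitamin B12 metabolism, lies on the opposite strand to Mvk with 209 bases between their starts, so that the Mmab start falls within the Mvk window printed above. It had 611, 1222, 1105 and 870.4 normalized counts in WTMM and 1234, 1214, 1577 and 1105 in WTPP, against 868, 1290.4, 1018 and 977 in WT. WTMM 6 was again the lowest liver and WTPP 6 the highest. Rdh11, a retinol dehydrogenase, had r = 0.96, and its values of 869 in WTMM 6 and 3427 in WTPP 6 were the extremes of the 12 livers. The others were Sgsm1 (0.95), Slc44a3 (0.95), Wnk1 (0.92), Gm826 (0.91), Cdca3 (0.90) and Ank2 (0.88).

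Insig2 varied as strongly as the enzymes but did not follow them. It had 5127, 6099, 5397 and 5594 normalized counts in WTMM and 10849, 8121, 3928 and 2480.2 in WTPP, against 5396, 4796, 5289 and 5643 in WT. The spread was thus within WTPP, where livers 2 and 3 stood above and livers 6 and 7 below all 8 other livers. Insig1, its relative and a direct SREBP2 target, had 8239, 7715, 11889 and 4594 in WTMM and 11543, 12267, 17652 and 10659 in WTPP, against 9609, 12819, 15119.6 and 14319.9 in WT. Over the 12 livers Insig1 and Insig2 had r = -0.07. Among all members, Insig2 ran most strongly against the carriers Stard4 (r = -0.81), Npc1 (-0.65) and Tmem97 (-0.59).

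A search made after these values were seen, over genes with a mean of at least 50, placed Clock as the gene most like Insig2 (r = 0.99 over 12 livers, and 0.81 over the 8 livers outside WTPP). Clock encodes a core factor of the circadian clock, and hepatic Insig2 is known to oscillate over the day in mice. Clock had 1111, 1228, 1118 and 1258 normalized counts in WTMM and 1880.0, 1686, 934 and 630.3 in WTPP, against 1247, 1099, 1132 and 1251 in WT. Dbp, a clock output gene, ran the other way (r = -0.91): it had 4649, 3716, 3667 and 4156 in WTMM and 140.3, 1316, 4930.4 and 6545 in WTPP, against 2074, 3400.2, 2755 and 2993 in WT. Within WTPP the order of the livers by Insig2 was therefore the order by Clock and the reverse order by Dbp. Of 11 clock genes looked up after the values were seen, Arntl (0.93), Npas2 (0.85) and Cry1 (0.76) ran with Insig2, and Tef (-0.92), Per2 (-0.92), Per3 (-0.91), Nr1d2 (-0.85), Per1 (-0.85) and Nr1d1 (-0.66) ran against it. Over the 8 livers outside WTPP these values were weaker or of the other sign, for example -0.52 for Dbp and -0.01 for Arntl, except for Nr1d1 (-0.77). The same genes were little related to the core enzymes, with r from -0.27 (Cry1) to 0.19 (Per3).

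**Figure D3:**
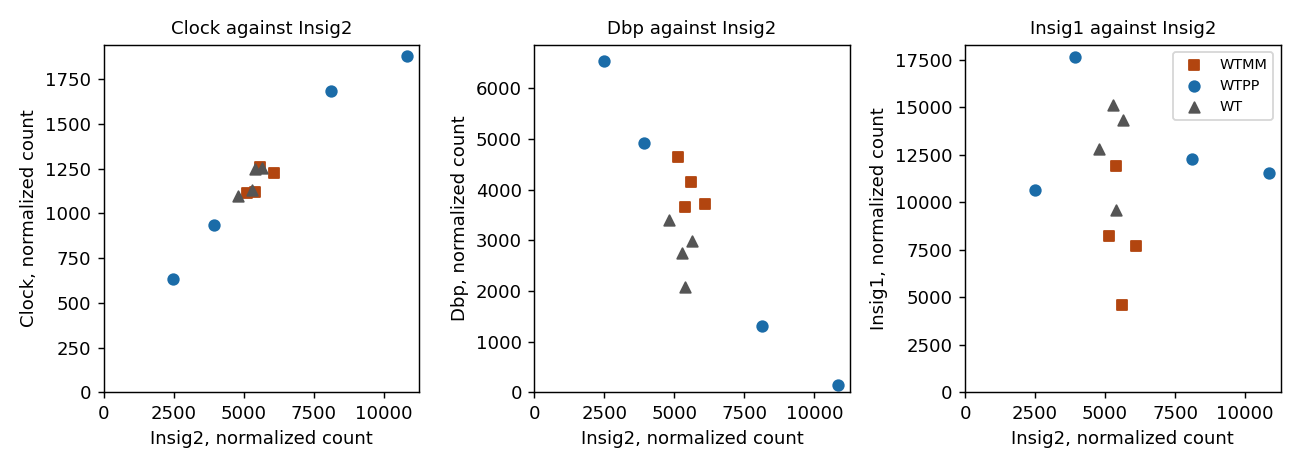
Normalized counts of Clock, Dbp and Insig1 (vertical axes) against those of Insig2 (horizontal axes), 1 point per liver in the 3 groups. Across the 4 WTPP livers Clock climbs and Dbp drops as Insig2 goes up, while WTMM and WT livers sit in the middle and the Insig1 points show no such order (r = -0.07).

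Per1, a clock gene, also differed between the groups. It had 1057, 1284, 1581 and 1237 normalized counts in WTMM and 319, 893, 1200.4 and 1662 in WTPP, against 313, 368, 369 and 379 in WT. It was higher in WTMM than in WT (log2 fold change 1.84, limma adjusted p = 0.00741) and higher in WTPP than in WT (1.28, limma adjusted p = 0.0375). The other 10 clock genes had limma adjusted p of 0.05 or more in both comparisons. Over all tested genes, 10.4% were called in WTMM against WT and 10.2% in WTPP against WT. With Per1 alone called, the share among the clock genes was near this background in both comparisons. The clock genes were also looked up after the values were seen. The part of clock phase or hour of collection in the sterol results was not tested.

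WTMM livers were compared with WT livers to ask whether descent from Khdc3-null grandmothers went with a change of sterol genes in wild-type descendants. Of the 28 members 1 passed the test, Ggps1, which rose. Over all tested genes, 10.4% passed an adjusted p of 0.05 in this comparison (limma on log2(normalized count + 1), Benjamini-Hochberg adjustment over 14473 genes), 4.44% higher and 5.94% lower. The members had a median log2 fold change of -0.13, against 0.00 over all tested genes, with 10 members above 0 and 18 below. Without WTMM 6 that median was 0.06 and 17 members lay above 0, so the lean of the members rested on 1 liver.

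Ggps1, geranylgeranyl diphosphate synthase (chr13:14050659-14063488, GRCm38), had 229.5, 257, 231 and 246 normalized counts in WTMM and 207, 246, 216 and 238 in WTPP, against 181, 158, 185 and 192 in WT. Every descendant liver lay above every WT liver. It was 1.35-fold higher in WTMM than in WT (log2 fold change 0.43 ± 0.10 SE, limma adjusted p = 0.0194) and 1.27-fold higher in WTPP than in WT (0.34 ± 0.10, limma adjusted p = 0.0492). The WTMM call was lost without WTMM 7 (limma adjusted p = 0.0596) or WTMM 9, and the WTPP call in 16 of 23 alternative fits, 11 of which each left out 1 library. With both descendant groups pooled, Ggps1 was called, also in all 22 alternatives (log2 fold change 0.39 ± 0.09, limma adjusted p = 0.0142). Ggps1 shares 257 exonic bases with Arid4b on the opposite strand, which had 7260 reads against 2696 for Ggps1. The sources used here do not say whether counting used strand, and Arid4b had log2 fold changes of 0.40 in WTMM against WT and 0.22 in WTPP against WT (limma adjusted p = 0.0595 and 0.295), so the Ggps1 values are uncertain.

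Of the regulators, Insig1 had the lowest fold change of all members in WTMM against WT, at 8109 ± 2989.8 normalized counts in WTMM and 12967 ± 2433 in WT (SD, n = 4 each). Its log2 fold change of -0.74 ± 0.24 did not pass (limma adjusted p = 0.0691). It was -0.49 without WTMM 9, the lowest liver (limma adjusted p = 0.171, the highest of the alternatives). It passed without WTMM 8 (-0.95, limma adjusted p = 0.0261), under quantile normalization and with array weights. Srebf2 had a log2 fold change of -0.39 ± 0.15 (limma adjusted p = 0.111) and Scap one of 0.18 ± 0.13 (limma adjusted p = 0.424). Npc2 and Ggps1 were the 2 members whose group ranges did not overlap, against 18.8% of all tested genes.

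WTPP livers were compared with WT livers as the parallel question for descent from Khdc3-null grandfathers. Ggps1, Sc5d and Scap rose and 0 members fell, 3 of 28 (10.7%) against 10.2% of all tested genes (4.68% higher and 5.53% lower), a share near the background. The median over the members was 0.24, against -0.01 over all tested genes, and 23 members lay above 0. Without WTPP 6 the median was 0.09 with 18 members above 0, and without WTPP 7 it was 0.36 with 26 above 0.

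Sc5d, the sterol C5-desaturase (chr9:42251595-42264256), had 12069, 11558, 15399 and 11462 normalized counts in WTMM and 16961, 15244, 22602 and 14777 in WTPP, against 9360.0, 11838, 10506 and 12561 in WT. All WTPP livers lay above all WT livers, and WTMM overlapped both. It was 1.56-fold higher in WTPP than in WT (log2 fold change 0.64 ± 0.15 SE, limma adjusted p = 0.0156), and the call was lost only without WT 116 (limma adjusted p = 0.0531) among 23 alternatives. In WTMM against WT it had 0.19 ± 0.15 (limma adjusted p = 0.431).

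Scap, the sterol-sensing escort of SREBP2 (chr9:110333288-110384950), had 3724, 4201, 3695 and 3986 normalized counts in WTMM and 4539.7, 5318, 5887 and 4996 in WTPP, against 2709, 4584, 3567 and 3191 in WT. WTPP livers stood above the WTMM livers without overlap, and 1 WTPP liver lay just under the highest WT liver, WT 117. It was higher in WTPP than in WT (log2 fold change 0.58 ± 0.13, limma adjusted p = 0.0166), a call kept in all 23 alternatives (highest limma adjusted p = 0.04998).

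Hmgcs1, the HMG-CoA synthase at the entry of the route (chr13:119690379-119708260), had the largest member difference in WTPP against WT without passing. It had 4744, 12576, 12168 and 7382 normalized counts in WTMM and 22662, 15481, 31278 and 10903 in WTPP, against 8095, 9254, 9842 and 10305 in WT. The WTPP and WT ranges did not overlap, although WTPP 7 lay close to the highest WT liver. It was 1.99-fold higher in WTPP than in WT (log2 fold change 0.99 ± 0.32, limma adjusted p = 0.0652). Without WTPP 6, the highest liver, it was 0.74 (limma adjusted p = 0.171, the highest of the alternatives). It passed without WTPP 7 (1.25, limma adjusted p = 0.0312) and without WTMM 6, through the shared spread (limma adjusted p = 0.0394). Hmgcs1, Fdft1, Sc5d, Ggps1 and Npc2 were the 5 members whose WTPP and WT ranges did not overlap, against 15.1% of all tested genes. Fdft1, squalene synthase, had 4731 ± 1141 normalized counts in WTPP and 3404 ± 515 in WT (SD, n = 4 each, limma adjusted p = 0.118), and shares 774 exonic bases with Ctsb on the opposite strand.

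**Figure D4:**
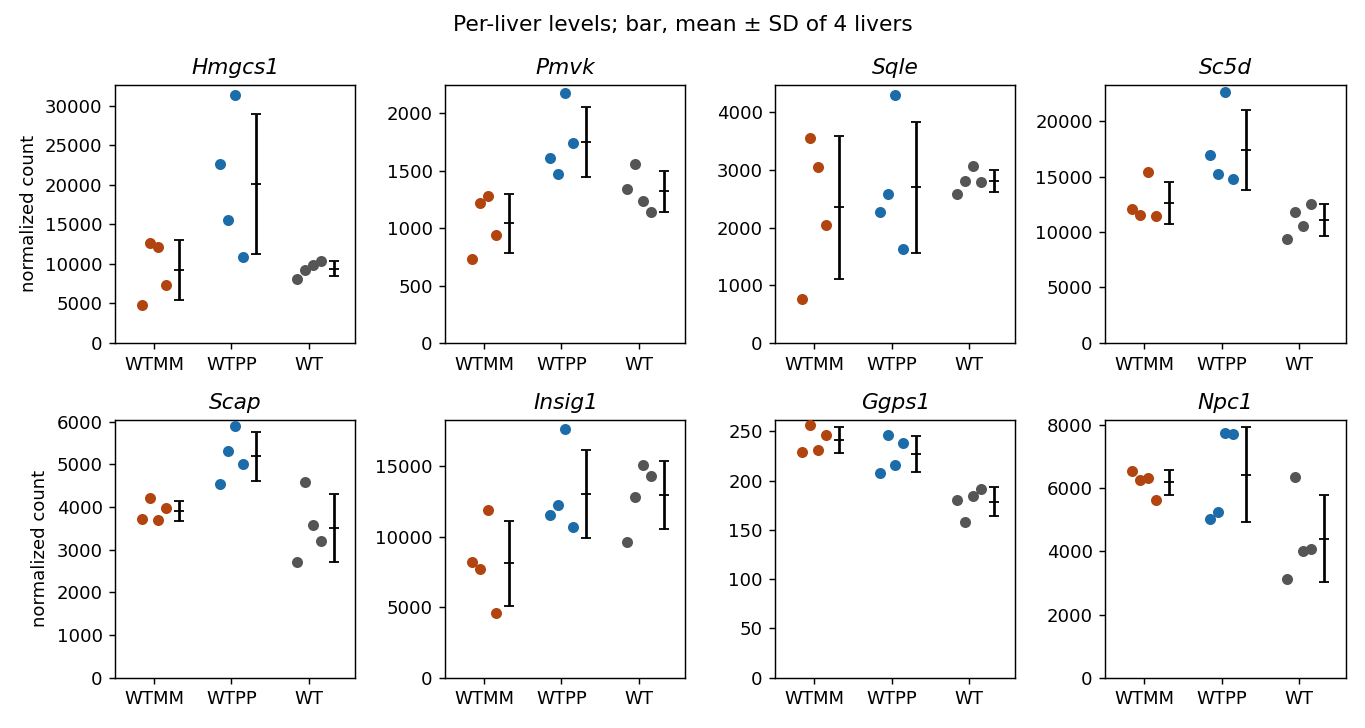
Normalized counts of 8 members in each liver (points) with the mean ± SD of the 4 livers (bars), for WTMM, WTPP and WT from left to right, on axes that start at 0. Sc5d and Hmgcs1 are higher in all 4 WTPP livers than in any WT liver, Pmvk is lower in all 4 WTMM livers than in any WTPP liver, and the Sqle groups overlap.

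The direct comparison of WTMM with WTPP asks whether the line of descent, grandmothers or grandfathers, went with a difference. Pmvk fell in WTMM and 0 members rose, against 4.17% of all tested genes called in either direction, 2.29% higher and 1.88% lower. Of the 28 log2 fold changes, 26 were below 0, with a median of -0.40 against 0.00 over all tested genes, of which 50.1% were below 0. At an unadjusted p under 0.05, 11 members (39.3%) passed, against 18.6% of all tested genes. By the same measure, 17.9% of members passed in WTMM against WT, against 27.3% of all tested genes. The shares were 28.6% against 26.6% in WTPP against WT, and 17.9% against 29.0% for the pooled descendants against WT. The members move together between livers, so the 26 are not 26 separate observations. Without WTMM 6 the median was -0.19 and without WTPP 6 it was -0.27, with 0 members called in each.

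Pmvk, phosphomevalonate kinase (chr3:89454541-89469013), had 728, 1222, 1280.5 and 936 normalized counts in WTMM and 1613, 1473, 2175 and 1743 in WTPP, against 1342, 1557, 1234 and 1143 in WT. All WTMM livers lay below all WTPP livers, and the WT livers overlapped both. Its log2 fold change was -0.77 ± 0.17 SE in WTMM against WTPP (limma adjusted p = 0.0250). The call was lost in 8 of 25 alternatives, among them those without WTMM 6, WTMM 9, WTPP 6 or WTPP 7, with limma adjusted p of 0.0803 or less in those 4 fits. Against WT, Pmvk had -0.37 ± 0.17 in WTMM and 0.40 ± 0.17 in WTPP, neither called (limma adjusted p = 0.186 and 0.152). The larger difference of Hmgcs1, -1.12 ± 0.32, did not pass (limma adjusted p = 0.0712), and neither did that of Scap, -0.41 ± 0.13 (limma adjusted p = 0.115). Srebf2, Scap, Acat2, Lss and Pmvk were the 5 members whose WTMM and WTPP ranges did not overlap, against 13.2% of all tested genes. Acat2, which makes acetoacetyl-CoA, is 97.7% identical over 1477 bases to Acat3, which had 59687 reads against 15263, so its values are uncertain.

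**Figure D5:**
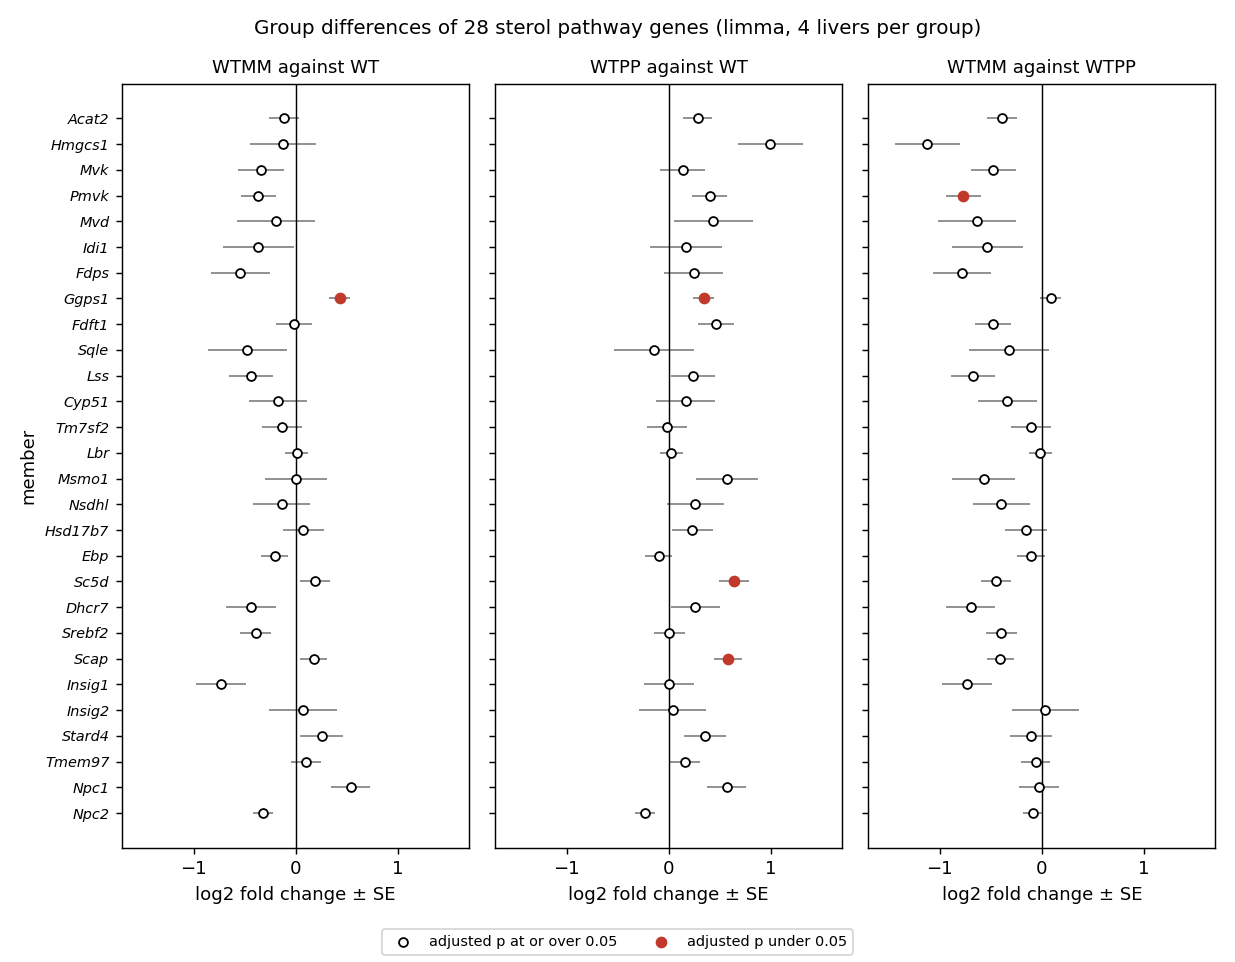
Log2 fold change ± SE of the 28 genes (rows, in pathway order) in 3 panels, each descendant group against WT and then WTMM against WTPP, with filled red points for adjusted p under 0.05. Ggps1 is called in WTMM against WT, Ggps1, Sc5d and Scap in WTPP against WT, and Pmvk in WTMM against WTPP, where 26 of 28 points lie left of 0.

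With the 8 descendant livers pooled against the 4 WT livers, Ggps1, Npc1, Sc5d and Scap rose and Npc2 fell, 5 of 28 (17.9%) against 12.4% of all tested genes, 5.48% higher and 6.92% lower. Npc1, which exports cholesterol from the lysosome, had 6541, 6276, 6324 and 5633 normalized counts in WTMM and 5031, 5257, 7746 and 7712 in WTPP, against 3141, 6374, 4025 and 4073 in WT. WT 117 lay among the descendant livers while the other WT livers lay below all of them. The pooled log2 fold change was 0.55 ± 0.17 (limma adjusted p = 0.0451), and the call was lost in 12 of 22 alternatives, 9 of which each left out 1 library (limma adjusted p = 0.158 without WT 116). Without WT 117 the log2 fold change was 0.75. Npc1 shares 511 exonic bases with Rmc1 on the opposite strand, which had 8940 reads against 69915 for Npc1. The pooled log2 fold change of Rmc1 was 0.19 (limma adjusted p = 0.126). As the use of strand in counting is not stated, the Npc1 values are uncertain too.

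Npc2, the soluble partner of NPC1 in the lysosome, had 2694, 2544, 2621 and 2234 normalized counts in WTMM and 2544, 2651, 2651 and 2837 in WTPP, against 3839.8, 3058, 2872 and 2879 in WT. All descendant livers lay below all WT livers, as 6.72% of all tested genes did in one direction or the other. The pooled log2 fold change was -0.28 ± 0.09 (limma adjusted p = 0.0492), and the call was lost in 17 of 22 alternatives, 11 of which each left out 1 library (limma adjusted p = 0.160 without WT 116, the highest WT liver). WT 116 was also the highest liver for the summed Kupffer cell markers (36997 normalized counts). Between the pooled descendants and WT, 8 of 8 of those markers were called, against 12.4% of all tested genes. The part of the Kupffer cell markers in the Npc2 difference was not tested. For the pooled calls of Sc5d (0.41 ± 0.13, limma adjusted p = 0.0468) and Scap (0.38 ± 0.12, limma adjusted p = 0.0486), 12 and 14 of 22 alternatives ended the call, 9 and 10 of which each left out 1 library.

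The genes around the route were followed as 5 lists, fixed with earlier results of these data known. Of 7 genes of acetyl-CoA supply and further synthesis steps, 1 rose in WTMM against WT, 2 rose in WTPP against WT and 1 fell in WTMM against WTPP. For these and the following lists, the shares called over all tested genes were 10.4% in WTMM against WT, 10.2% in WTPP against WT and 4.17% in WTMM against WTPP. The 1 of 7 in WTMM against WT is thus near the background. The counts in WTPP against WT and in WTMM against WTPP lie above it, but rest on 2 genes and 1 gene. Acss2, which makes acetyl-CoA from acetate and is an SREBP target, had 2048, 2919, 3540.1 and 2040.4 normalized counts in WTMM and 4605, 4589, 9246 and 6108 in WTPP, against 2559.6, 4366, 2396 and 2939 in WT. Every WTPP liver lay above all other livers. It was 1.97-fold higher in WTPP than in WT (limma adjusted p = 0.0252), and its log2 fold change in WTMM against WTPP was -1.20 ± 0.25 (limma adjusted p = 0.0177). Its deviations followed the core enzymes with r = 0.74. Erg28, a scaffold of the sterol demethylation enzymes, averaged 3063 ± 501 in WTPP and 2147 ± 188 in WT (SD, n = 4 each, limma adjusted p = 0.0280, r = 0.81 with the core enzymes). Acat1, the mitochondrial thiolase, averaged 20937 ± 4448 in WTMM and 12430.2 ± 1799 in WT (limma adjusted p = 0.0360, r = -0.29).

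None of the 11 genes of SREBP processing and enzyme turnover passed in any of the 4 comparisons. Of 15 genes of uptake, esterification and transfer, 1 rose and 1 fell in WTMM against WT and 1 fell in WTPP against WT, shares near those over all tested genes (10.4% and 10.2%). Soat1, which esterifies cholesterol and is abundant in macrophages, fell in both descendant groups. It had 181, 183, 199 and 184 normalized counts in WTMM and 162, 185, 247 and 163 in WTPP, against 475, 242, 360.2 and 366 in WT (limma adjusted p = 0.00881 and 0.00887). Only WTPP 6, at 247, lay above the lowest WT liver. The Kupffer cell markers were lower in the same livers, with ranges as given above, and their part was not tested. Nceh1, a cholesteryl ester hydrolase and the gene that rose, averaged 1666 ± 232 in WTMM and 905 ± 74.4 in WT (limma adjusted p = 0.0222).

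Of 8 genes of the sterol sensor LXR and of efflux, 2 rose in WTMM against WT, and 2 rose and 2 fell in WTPP against WT, against 10.4% and 10.2% of all tested genes called in these comparisons. Abcg8, part of the exporter of sterols into bile, averaged 3066 ± 349 normalized counts in WTMM and 3189 ± 549.7 in WTPP, against 1768 ± 331 in WT (limma adjusted p = 0.00593 and 0.00466). Its partner Abcg5 averaged 3989 ± 452 in WTMM and 2410.2 ± 337 in WT (limma adjusted p = 0.00343). Lpcat3, a phospholipid remodelling enzyme, averaged 3525 ± 793 in WTPP and 1920.4 ± 263 in WT (limma adjusted p = 0.00347). Abcg1, a sterol exporter prominent in macrophages, averaged 162 ± 32.8 in WTPP and 305 ± 85.2 in WT (limma adjusted p = 0.0163). Nr1h3, which encodes LXR alpha, averaged 3438 ± 286 in WTPP and 4499 ± 784 in WT (limma adjusted p = 0.0463). The Kupffer cell markers differed in the same direction as Abcg1 and Nr1h3, and their part was not tested. Over the 12 livers, r of these 5 genes with the core enzymes lay from -0.23 (Abcg1) to 0.12 (Lpcat3).

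Of 10 genes of the isoprenoid branches, 1 rose and 1 fell in WTMM against WT and 1 rose in WTPP against WT, where all tested genes gave 10.4% and 10.2%. Rabggtb, a subunit of the enzyme that attaches geranylgeranyl groups to Rab proteins, rose in both descendant groups. It averaged 1396 ± 127 normalized counts in WTMM and 1368 ± 117 in WTPP, against 1063 ± 109 in WT (limma adjusted p = 0.0222 and 0.0315). Its deviations between livers ran against the core enzymes (r = -0.80, n = 12). Dhdds, which extends dolichol chains, fell in WTMM, with 994 ± 105 against 1521 ± 111 in WT (limma adjusted p = 0.00470).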

How the data were processed

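Liver RNA was sequenced in 12 libraries, 4 per group, from total RNA isolated with a lipid tissue kit and a directional library kit, per the labels' protocols. The tools named per the submitters' processing notes are cutadapt, HISAT2 and DESeq2, with build GRCm38; no version, role or gene counter is stated. The deposited values are log2(normalized count + 0.1) by the authors, as read from the values, for 25069 genes. Undoing the log and taking off 0.1 gave normalized counts. Dividing these by a unit estimated for each library from the same values gave whole reads to within 0.001 of a read for 100% of values. Gene IDs matched GENCODE M21 for 25016 genes. All 12 columns were used.

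The 28 members, the 5 gene lists and the tests were chosen with earlier results of these data known. Values were tested as log2(normalized count + 1), which understates changes of low genes, with limma 3.58.1 in R 4.3.3 (group means of 12 libraries, mean-variance trend, no covariate). Genes with a mean of at least 10 were tested and Benjamini-Hochberg adjustment ran over all 14473 genes of each contrast at 0.05. The 4 contrasts share libraries. The fit was also run on simulated data with independent noise for each gene and liver. Such data do not hold genes that move together between livers, as these members do. Values are given in full for members past the threshold in any contrast, the 8 with the largest SD between livers, and Srebf2, Scap, Insig1 and Insig2; for other lists, up to 4 genes past the threshold. Near-identical copies were found with BLAST 2.17.0 (at least 90% identity over at least 300 bases). Alternatives were other pseudocounts (0.1 and 5), count minimums, scalings and fits, and leaving out each library. The clock genes and the genes like Insig2 were looked up after the values were seen. WTMM and WTPP share the numbers 6 and 7. The labels do not say that these pair animals, and the comparisons use no pairing.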

Additional observations from a re-analysis of the deposited data

Results flagged for a closer look

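Among 84 sets of 4 livers (28 genes in 3 groups), 4 held a liver whose gap to its nearest neighbour, divided by the range of the set, exceeded Dixon's 95% critical value. Chance alone gives about 1 in 20 sets, which is about as many as were found. Fdft1 (0.9391) and Lss (0.8504) stood high in WTPP 6, with 6441 normalized counts for Fdft1 and 4989 for Lss in that liver and at most 4205 and 2639 in the other WTPP livers. Ebp (0.9178) and Tmem97 (0.8806) stood high in WT 117, with 9841 and 2133 normalized counts against at most 6628 and 1566 in the other WT livers. Pmvk differed between WTMM and WTPP (limma adjusted p = 0.02499), while neither group differed from WT past the threshold.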

How the results depend on the processing

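The clearest dependence was on single livers. Leaving out 1 library at a time moved the count of all genes called between 822 and 1795 in WTMM against WT, 742 and 1997 in WTPP against WT, 266 and 824 in WTMM against WTPP, and 815 and 2033 for the pooled descendants against WT. Members called then ran from 0 to 2, from 1 to 3, from 0 to 2 and from 1 to 3 in these 4 comparisons; fewer libraries were fitted in each. Signs turned for members not called in the comparison concerned. In WTMM against WT the log2 fold changes ran from -0.31 to 0.16 for Hmgcs1, -0.74 to 0.0014 for Sqle, -0.59 to 0.025 for Idi1, -0.33 to 0.14 for Cyp51, -0.43 to 0.14 for Mvd and -0.21 to 0.30 for Msmo1. In WTPP against WT they ran from -0.40 to 0.066 for Sqle, -0.076 to 0.36 for Idi1, -0.064 to 0.36 for Cyp51, -0.16 to 0.087 for Insig1, -0.30 to 0.41 for Insig2 and -0.10 to 0.15 for Srebf2. In WTMM against WTPP they ran from -0.60 to 0.15 for Sqle, -0.34 to 0.37 for Insig2 and -0.14 to 0.071 for Npc1. The median r over core enzyme pairs stayed between 0.76 and 0.84.

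With array weights, WTMM against WT called 2655 genes and 4 members, WTMM against WTPP called 2 members, and 3 near-zero values turned: Mvd in WTMM against WT (0.0031), Insig2 (-0.059) and Npc1 (0.020) in WTMM against WTPP. Msmo1 in WTMM against WT turned to -0.028 under quantile normalization, -0.0026 with scaling to the library total and -0.0059 with voom on the recovered reads. Quantile normalization called 3 members in WTMM against WT. A fit of WTPP and WT alone called 858 genes; for the pooled contrast no such fit was run. Without the mean-variance trend 0 members were called in WTMM against WTPP. For the pooled descendants against WT, 1 member was called with every gene tested or without the trend, and 3 with quantile normalization, voom or robust variances. The cause was not tested. Of the single-member values under these settings, 1196 kept direction and side of the threshold, 82 lost a call or weakened, 16 gained one and 41 turned sign. The labels do not say that the numbers 6 and 7 shared by WTMM and WTPP pair livers. The deviations of same-numbered livers had a correlation of -0.17 over 14473 genes. With 2 libraries per group the deviations within a group mirror each other, so this value cannot decide whether livers are paired. A fit of those 4 libraries with the number as a block called 32 genes and 0 members, against 38 genes and 0 members without it. With 4 livers per group and SDs of up to 0.67 on the log2 scale, the spread between livers limits which differences of these genes can be called.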

Other observations

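Besides Clock, 9 genes made up the 10 most like Insig2 over the 12 livers, all with r of 0.95 to 0.97: Cldn1, Acnat2, Atp2a2, Chka, Clpx, Crot, Dtx4, Ubqln1 and Stt3b. They were picked after their values were seen, and their likeness is a description with no test. The likeness rested mainly on the WTPP livers. Over the 8 livers outside WTPP, their r with Insig2 ran from -0.47 (Chka) to 0.57 (Cldn1). Clpx, a mitochondrial chaperone subunit, had 2723, 2929.5, 2942 and 2462 normalized counts in WTMM and 11398, 7209, 2922 and 2385 in WTPP, against 3815, 2572, 2716 and 3370.1 in WT. Chka, choline kinase alpha, had 484, 458, 545 and 436 in WTMM and 2072, 1306, 429 and 313 in WTPP, against 789.6, 794, 678 and 713 in WT. In both, WTPP 2 and WTPP 3 stood above the other 10 livers. None of these 10 genes, Clock included, had a limma adjusted p under 0.05 in any comparison.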
